A study of Mus musculus with 9 samples.

Results

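The mouse mitochondrial genome carries 37 annotated genes, and every row placed on it in the deposited table of 57180 genes was taken as a member. The members are 13 protein-coding (mRNA) genes, 2 ribosomal RNA (rRNA) genes and 22 transfer RNA (tRNA) genes. Whole hippocampi of C57BL6 mice aged 11 days had been profiled by RNA-seq. In the cKO group, 4 animals (replicates 1, 3 and 4 male, replicate 2 female) had lost Slc38a3, the gene of the glutamine transporter SNAT3, in endothelial cells. The WT group held 5 wild-type animals (replicate 1 male, replicates 2 to 5 female). The sources used here do not give the Cre driver or say whether WT animals carried floxed alleles.

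Mitochondria keep a small circular genome of their own, and each of its protein genes encodes a subunit of the respiratory chain or of ATP synthase. Both strands are transcribed into long precursor RNAs, in which tRNAs stand between most of the mRNAs and rRNAs, and nuclear-encoded ribonucleases cut the tRNAs out and so release the neighbouring RNAs. Neurons depend strongly on oxidative phosphorylation, whose complexes join these subunits to many more that are encoded in the nucleus.

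The table holds normalized counts, that is, reads per gene after division by the library's size factor. Undoing the division gave 30803135 to 34034530 reads per library. Slc38a3 held 308 to 405 normalized counts in cKO libraries, against 1804 to 3514 in WT libraries. All 7 markers of hippocampal neurons were measured, and their sum was 109347 to 111760 normalized counts in cKO libraries and 112176 to 118459 in WT libraries. The sum of 7 choroid plexus markers spanned 658 to 33098 normalized counts in cKO libraries and 672 to 43746 in WT libraries, a wide spread in both groups. In whole tissue, fewer cells of a type and less RNA per cell cannot be told apart.

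Of the 37 members, 25 had a read in at least 1 library and 12 had none. A mean of at least 10 normalized counts over the 9 libraries was required for testing, and 14 members met it: both rRNAs, 7 of the 13 mRNAs and 5 of the 22 tRNAs. The 6 mRNAs below it were mt-Co2 and mt-Co3 (cytochrome c oxidase subunits), mt-Atp6 and mt-Atp8 (ATP synthase subunits), and mt-Nd3 and mt-Nd4l (complex I subunits). They stand next to each other on the genome, between mt-Co1 and mt-Nd4. Over all 9 libraries mt-Nd3 had 34 reads, mt-Co3 had 2, mt-Co2 had 1, mt-Atp6 had 1, and mt-Atp8 and mt-Nd4l had none. mt-Atp8 was thus at 0 in each of the 4 cKO libraries and each of the 5 WT libraries. A library with 0 reads of a gene allows it a share of up to 9.74e-06% of the reads (3 reads, counting error only). The 2 neighbours on either side of the block were among the most abundant RNAs of the tissue, with means over the 9 libraries of 253165 normalized counts for mt-Co1 and 71563 for mt-Nd4.

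The nuclear genome holds copies of mitochondrial sequence, and the block with almost no reads coincides with such a copy. Annotated pseudogenes on mouse chromosome 1 (GRCm39, 24650616 to 24655278, minus strand) match the mitochondrial genome from position 6390 to 11042, a span of 4653 bases, in the same gene order. The spacing between them is nearly that of the mitochondrial genes. Gm28661 matched mt-Co2, Gm10925 matched mt-Atp6, Gm28437 matched mt-Co3 and Gm10222 matched mt-Nd4l without a mismatch, and Gm28439 matched the first 876 bases of mt-Nd4 without a mismatch. Gm28438 differed from mt-Nd3 at a single base (T3C, the mitochondrial base first, counted from the first base of the gene), and Gm29216 differed from the last 483 bases of mt-Co1 at a single base (A1066T). These stretches are shown because they are where the mitochondrial RNAs and their copies can and cannot be distinguished. Sequences are from GENCODE M21 transcripts, 5′ to 3′, at the deposited table's GRCm39 coordinates, and the capital marks the base that differs.
mt-Nd3 (MT:9459-9491, plus strand): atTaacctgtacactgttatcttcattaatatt
Gm28438 (chr1:24652168-24652200, minus strand): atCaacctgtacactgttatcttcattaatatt
mt-Co1 (MT:6390-6423, plus strand): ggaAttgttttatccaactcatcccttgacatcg
Gm29216 (chr1:24655236-24655269, minus strand): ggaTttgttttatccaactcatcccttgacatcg

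Annotated copies on chromosome 2, Gm13341, Gm13340 and Gm13339, were less close. Gm13340 was 97.6% identical to mt-Co1 and Gm13339 was 96.7% identical to the last 510 bases of mt-Nd2. Gm13341 was 97.6% identical to mt-Co2 and differed from it at 2 of the first 120 bases (C25T and G57A), at which Gm28661 of chromosome 1 did not differ. The capitals mark these 2 positions.
mt-Co2 (MT:7013-7132, plus strand): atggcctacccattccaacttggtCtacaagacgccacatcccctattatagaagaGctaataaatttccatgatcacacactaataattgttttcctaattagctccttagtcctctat
Gm28661 (chr1:24654527-24654646, minus strand): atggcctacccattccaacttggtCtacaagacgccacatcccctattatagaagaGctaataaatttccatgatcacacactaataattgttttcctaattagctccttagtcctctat
Gm13341 (chr2:22477855-22477974, minus strand): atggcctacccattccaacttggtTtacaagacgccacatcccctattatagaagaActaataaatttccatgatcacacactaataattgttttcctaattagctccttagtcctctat

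The share of each gene that could be read elsewhere followed the same order along the genome. In windows of 50 bases, all 635 of mt-Co2 and 99.5% of those of mt-Atp6, 99.9% of mt-Co3, 98.0% of mt-Nd3 and 98.8% of mt-Nd4l occurred exactly in a transcript of another gene. The share was 62.2% for mt-Nd4, 51.1% for mt-Co1, 8.19% for mt-Nd2, 7.61% for mt-Nd5 and 1.04% for mt-Rnr2. These shares depend on the window. In windows of 100 bases they were 60.8% for mt-Nd4, 30.8% for mt-Co1, 3.19% for mt-Nd2 and 0% for mt-Nd5 and mt-Rnr2. No window of mt-Rnr1, mt-Nd1, mt-Nd6 or mt-Cytb was found elsewhere. mt-Atp8 also had no such window. Its last 43 bases are the start of mt-Atp6, which Gm10925 matched without a mismatch, but that run is shorter than the window. The search covered annotated transcripts alone, and the sequence of chromosome 1 between the annotated copies was not read here. mt-Atp8 is shown as an mRNA of the block with no read in any library and no such window. Capitals mark the bases it shares with the start of mt-Atp6.
mt-Atp8 (MT:7766-7969, plus strand): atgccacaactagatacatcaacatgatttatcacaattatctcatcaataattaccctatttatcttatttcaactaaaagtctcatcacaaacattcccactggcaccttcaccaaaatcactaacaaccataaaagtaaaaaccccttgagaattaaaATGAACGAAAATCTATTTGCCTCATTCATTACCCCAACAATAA

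The copies on chromosome 1 held few reads themselves, with means of 0.654 to 4.34 normalized counts over the 9 libraries. The 5 tRNA genes inside the span (mt-Ts1, mt-Td, mt-Tk, mt-Tg and mt-Tr, which carry serine, aspartate, lysine, glycine and arginine) had no read in any library. The sources used here do not say how reads with several matching places were counted, and the part of shared sequence in these levels was not tested.

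An absence of reads was not confined to the span. Of the 17 tRNA genes outside it, mt-Tf, mt-Tn, mt-Th, mt-Ts2 and mt-Tl2 (phenylalanine, asparagine, histidine, serine and leucine) also had no read in any library. The search found no 50-base window of any tRNA gene in other annotated transcripts. It could not show whether unannotated nuclear sequence holds copies of the tRNA genes. A further 7 had reads but a mean below 10 normalized counts. Over all 9 libraries mt-Tt (threonine) had 79 reads, mt-Ta (alanine) 46, mt-Te (glutamate) 21, mt-Tl1 (leucine) 7, mt-Ty (tyrosine) 6, mt-Tv (valine) 3 and mt-Tc (cysteine) 2. The 5 tRNA genes that were tested had 1569 reads (mt-Tw), 872 (mt-Ti), 487 (mt-Tm), 226 (mt-Tq) and 224 (mt-Tp).

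**Figure D1:**
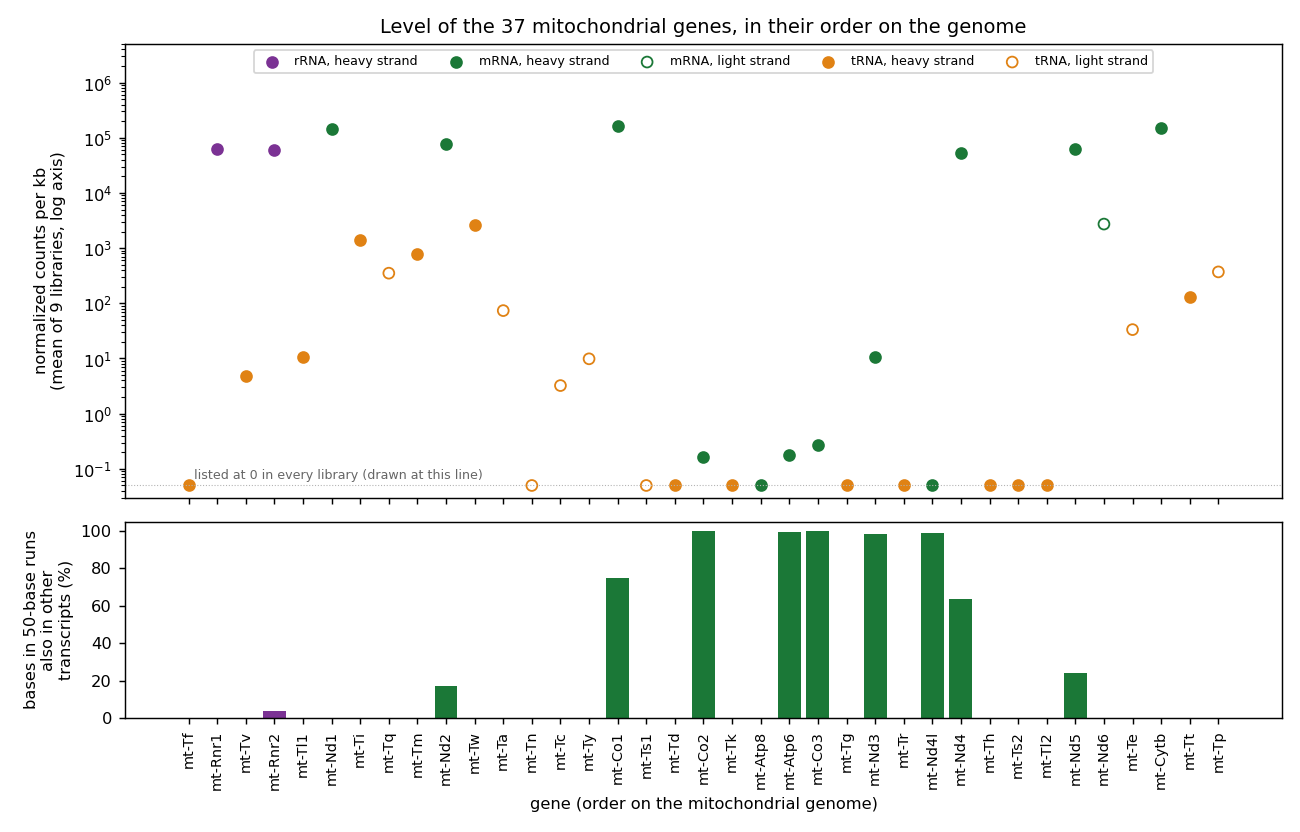
The upper plot gives the mean normalized count per kilobase of each of the 37 genes over the 9 libraries (log axis, filled for heavy-strand and open for light-strand transcripts, genes at 0 drawn at the dotted line), and the lower plot gives the percent of bases lying in 50-base runs that also occur in transcripts of other genes. From mt-Co2 to mt-Nd4l no gene exceeds 10.7 per kilobase. There mt-Co2, mt-Atp6, mt-Co3, mt-Nd3 and mt-Nd4l have 98.3% or more of their bases in such runs, whereas mt-Atp8 and the tRNAs have none.

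Levels between genes were compared per kilobase of gene span, as means over all 9 libraries. mt-Co1 (cytochrome c oxidase subunit 1) stood first with 163861 normalized counts per kilobase, mt-Cytb (the cytochrome b of complex III) followed with 150097, and mt-Nd1 (complex I) with 142766. The ranges of these 3 genes over the libraries overlapped. mt-Nd2 (complex I) held 77169 per kilobase, and its range of 70068 to 86865 lay below all 3 of them. mt-Rnr1 (the small-subunit rRNA), mt-Nd5, mt-Rnr2 (the large-subunit rRNA) and mt-Nd4 followed with 62154, 62105, 58920 and 51933 per kilobase, and their ranges overlapped. mt-Nd6, the only mRNA made from the light-strand promoter, held 2728 per kilobase with a range of 1994 to 3253, far under every heavy-strand mRNA tested. The place of mt-Nd4 in this order depends on the shared stretches, while mt-Co1 stood first either way. Divided by the 50-base windows found in no other transcript alone, mt-Co1 had 346328 and mt-Nd4 had 142556 per kilobase of such windows, beside 156814 for mt-Cytb and 88218 for mt-Nd2. This division assumes that no read from a shared window was counted, which is not known, and its values depend on the window length.

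Among the heavy-strand mRNAs, mt-Co1, mt-Cytb, mt-Nd2 and mt-Nd4 kept nearly fixed shares of the mitochondrial reads. mt-Co1 took 25.3 to 26.2% of the mitochondrial reads over the 9 libraries, mt-Cytb 17.0 to 18.02%, mt-Nd2 7.97 to 8.30% and mt-Nd4 7.15 to 7.50%. Other shares varied more, that of mt-Nd5 from 10.6 to 12.0%, that of mt-Nd1 from 13.4 to 14.9% and that of mt-Rnr2 from 8.94 to 10.7%. In cKO replicate 2, mt-Nd1 stood at 1.08 and mt-Nd5 at 0.931 of the gene's median over libraries. All 22 tRNA genes together made up 0.00110 to 0.00176% of the library's reads in cKO and 0.000873 to 0.00139% in WT. The sources used here do not name the RNA selection step of the library kit.

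The total moved between libraries as well. Mitochondrial genes gave 2.90, 3.06, 3.06 and 2.90% of the reads in cKO replicates 1 to 4, against 2.75, 2.90, 2.94, 3.35 and 3.31% in WT replicates 1 to 5. WT replicates 4 and 5 were the highest and WT replicate 1 the lowest, so the 4 cKO libraries lay inside the range of the 5 WT libraries. The summed mRNAs averaged 809988 ± 25825 normalized counts in cKO and 842172 ± 79668 in WT (SD, n = 4 and 5). The summed rRNAs averaged 147027 ± 12233 normalized counts in cKO and 157002 ± 13461 in WT. The groups overlapped in both sums, and WT replicates 4 and 5 weigh heavily on the differences. Without WT replicate 4 the summed mRNAs differed by -10805 normalized counts (cKO minus WT) and without WT replicate 5 by -11092, beside -32184 with all libraries, and without both the difference was 24444. For the share of reads the difference was -0.068 percentage points with all libraries, 0.0061 without WT replicate 4, -0.0024 without WT replicate 5 and 0.119 without both.

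The same libraries stood out gene by gene. mt-Co1 (ENSMUSG00000064351, MT:5328-6872) held 239179, 248599, 259292 and 239108 normalized counts in cKO replicates 1 to 4, against 232293, 246191, 240660, 287135 and 286030 in WT replicates 1 to 5. mt-Cytb (MT:14145-15288) held 164978, 166650, 175234 and 168003 in cKO libraries, against 155915, 164342, 166812, 192526 and 190937 in WT libraries. For both mRNAs WT replicates 4 and 5 lay above every other library, WT replicate 1 was the lowest, and the genotypes overlapped. mt-Rnr1 (MT:70-1024) held 52812, 59678, 58274 and 55062 normalized counts in cKO libraries, against 56014, 59647, 57429, 67666 and 67630 in WT libraries. Here too WT replicates 4 and 5 were the highest pair, while the lowest library was cKO replicate 1.

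The 4 remaining heavy-strand mRNAs, all of complex I, are given by their ranges. mt-Nd1 (MT:2751-3707) spanned 125866 to 146167 normalized counts in cKO libraries and 126580 to 147400 in WT libraries, and mt-Nd2 (MT:3914-4951) spanned 73726 to 80132 in cKO and 72730 to 90166 in WT. mt-Nd4 (MT:10167-11544) spanned 68005 to 70847 in cKO and 64806 to 82243 in WT, and mt-Nd5 (MT:11742-13565) spanned 103663 to 119247 in cKO and 102386 to 128443 in WT. In mt-Nd2, mt-Nd4 and mt-Nd5 the WT range enclosed the cKO range, and in mt-Nd1 the lowest library was a cKO library.

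Counted over the 9 abundant members (both rRNAs and 7 mRNAs), WT replicates 4 and 5 were each in the highest pair in 8, and WT replicate 1 was the lowest library in 6. The highest pair was cKO replicate 2 and WT replicate 4 for mt-Rnr2, and WT replicate 5 and cKO replicate 3 for mt-Nd6. The median ratio to the gene's median over libraries was 1.14 in WT replicate 4 and 1.15 in WT replicate 5, and 0.934 in WT replicate 1. cKO replicate 2 was the highest library for mt-Rnr2, where it exceeded the median 1.13-fold, and in the same library mt-Nd5 stood at 0.931 of its median. The sum of neuronal markers was 118459 and 117577 normalized counts in WT replicates 4 and 5, against 109347 to 116887 in the other 7 libraries. Its part in the mitochondrial levels was not tested.

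**Figure D2:**
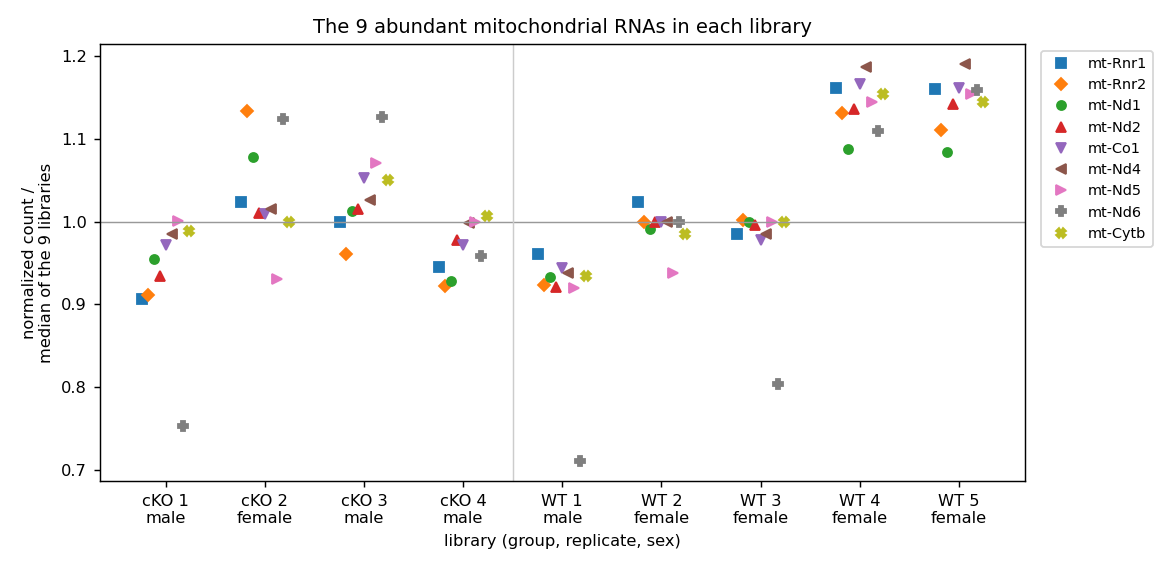
Each point is the normalized count of an abundant mitochondrial gene in a library divided by that gene's median over the 9 libraries, with cKO libraries on the left and WT libraries on the right. WT replicates 4 and 5 lie above 1.08 for all 9 genes, and mt-Nd6 spreads widest, from 0.71 in WT replicate 1 to 1.16 in WT replicate 5.

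The residual spread was set beside that of other genes in the same bracket of mean level. After genotype and sex were fitted, the 8 members with a mean of at least 10000 normalized counts had a median residual SD of 0.101 on the log2 scale (0.0634 to 0.138). The 532 genes outside the mitochondrial genome with such a mean had a median of 0.0554 (5th to 95th percentile, 0.0229 to 0.126). That range holds the members' median but not their highest value, that of mt-Nd5. The bracket has no upper bound, and the means of the 8 members were 59357 to 253165. The 5 tRNAs tested had a median residual SD of 0.309, and the 5678 other genes with a mean of 10 to 200 had 0.282. The 77 listed nuclear-encoded subunits of complexes I to V were summed in the same way. Their sum was 268016 and 264290 normalized counts in WT replicates 4 and 5, the lowest of the WT group, against 271304 to 280857 in the other WT libraries.

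Relations of 3 members with mt-Co1 across the 9 libraries were computed on log2 values, with exact two-sided permutation tests adjusted over these 3 relations. mt-Cytb followed mt-Co1 with r = 0.972 (exact permutation adjusted p = 0.00176, raw p = 0.000926) and a Spearman rho of 0.750 (exact permutation adjusted p = 0.0311). Without WT replicates 4 and 5, the libraries farthest from the median, r was 0.839 (exact permutation adjusted p = 0.0524, raw p = 0.0349, n = 7). mt-Nd6, read from the opposite strand, followed mt-Co1 with r = 0.755 (exact permutation adjusted p = 0.00176, raw p = 0.00117) and a rho of 0.850 (exact permutation adjusted p = 0.0182). Its r was 0.857 without those libraries (exact permutation adjusted p = 0.0143, n = 7). mt-Rnr2 followed with r = 0.746 (exact permutation raw and adjusted p = 0.0364) and a rho of 0.733 (exact permutation adjusted p = 0.0311). Without WT replicates 4 and 5 its r was 0.426 (exact permutation p = 0.377, n = 7), and without cKO replicate 2 alone it was 0.903 (n = 8). The strength of that relation thus depends on which libraries are kept. After genotype and sex were removed, r was 0.970 for mt-Cytb, 0.798 for mt-Nd6 and 0.758 for mt-Rnr2.

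Outside the mitochondrial genome, 13901 genes with a mean of at least 50 were ranked by their Pearson correlation with mt-Co1 over the 9 libraries, as a description. Oxsm, which encodes a mitochondrial fatty acid synthase enzyme, came first with r = 0.921. Sec63, a component of protein transport into the endoplasmic reticulum, had 0.920, Gm10033 had 0.920, Gopc had 0.917 and the kinase gene Rock2 had 0.914. Among the members, mt-Nd4 with 0.981, mt-Cytb with 0.972 and mt-Nd2 with 0.966 were more alike to mt-Co1 than any of these. So were the tRNA mt-Tm with 0.932 and the rRNA mt-Rnr1 with 0.924. The members mt-Nd5 with 0.880, mt-Nd1 with 0.830, mt-Nd6 with 0.755 and mt-Rnr2 with 0.746 stood below every listed gene from outside the mitochondrial genome. The other tRNAs tested also stood below those genes. mt-Ti had 0.748 and mt-Tq 0.245, while mt-Tw with 0.164 and mt-Tp with 0.0787 were hardly related to mt-Co1.

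The genotype comparison asked whether loss of Slc38a3 in endothelial cells went with other mitochondrial RNA levels in the hippocampus. No member passed. The test was limma-trend on log2(normalized count + 1), fitted with genotype and sex. At an adjusted p under 0.05 it passed 59 of 17036 genes (0.346%), 21 of them higher (0.123%) and 38 lower (0.223%), and 0 of the 14 members. Scaled to total reads, the same test passed 25 genes higher and 21 lower, and again 0 members. edgeR called 0 members (0.335% of all genes). DESeq2 called 1 member (1.17% of all genes) and robust limma called 1 (0.452% of all genes), in each case mt-Tw, which was higher. Unadjusted p values were under 0.05 for 2 of the 14 members, against 11.3% of all genes tested. In no member did the cKO libraries all lie on one side of the WT libraries, against 6.29% of all genes (2.58% higher and 3.72% lower).

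The mRNAs from the heavy-strand promoter were close to equal in the genotypes. mt-Co1 differed by -0.0060 ± 0.0759 on the log2 scale (SE, limma adjusted p = 0.982), and the 7 mRNAs tested, mt-Nd6 included, had a median log2 fold change of -0.00076 beside -0.0034 for all genes tested. For mt-Cytb the log2 fold change was 0.0079 ± 0.0714 (limma adjusted p = 0.977), and for mt-Nd1, mt-Nd2, mt-Nd4 and mt-Nd5 it was 0.050, -0.00076, -0.0038 and -0.018 (limma adjusted p of 0.765 to 0.997). The 95% intervals of the 8 abundant members lay between -0.20 (mt-Nd5) and 0.18 (mt-Rnr2) on the log2 scale. Differences inside a gene's own interval are not excluded by these libraries. mt-Rnr1 had a log2 fold change of -0.048 ± 0.0643 and mt-Rnr2 of 0.056 ± 0.0565 (limma adjusted p = 0.813 and 0.745).

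**Figure D3:**
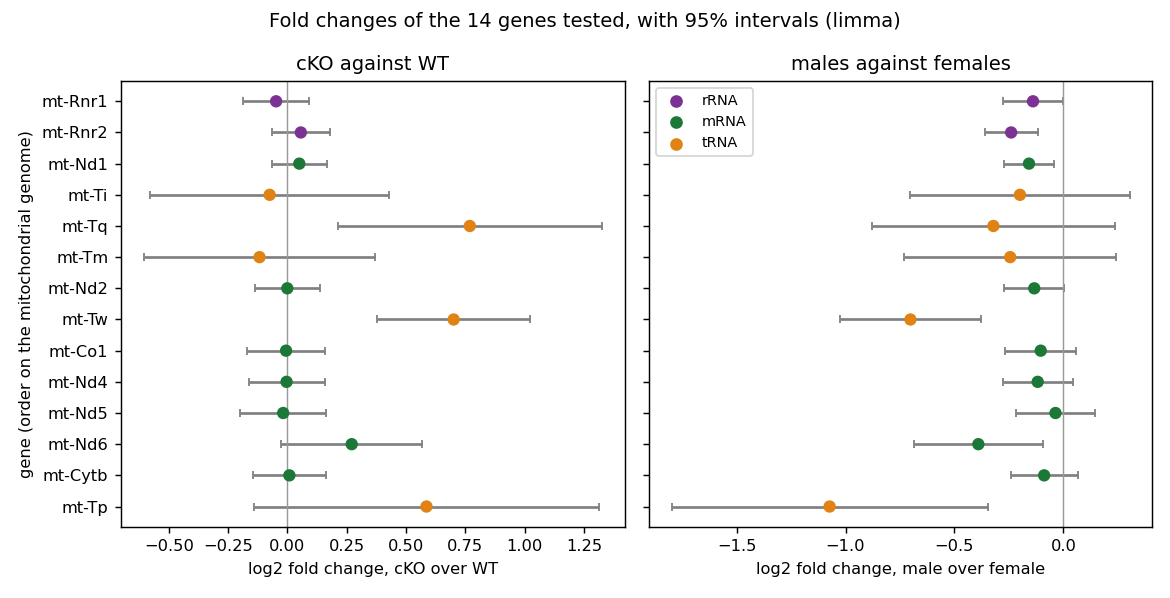
Points are log2 fold changes of the 14 mitochondrial genes tested, with 95% intervals from limma, for cKO over WT on the left and male over female on the right. For cKO over WT the intervals of mt-Tw (0.38 to 1.02) and mt-Tq (0.21 to 1.33) lie above 0, and for male over female all 14 points lie below 0.

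The tRNAs gave the widest differences. All 22 summed to 414 ± 101 normalized counts in cKO and 376 ± 72.7 in WT (SD, n = 4 and 5), and the groups overlapped. The difference of 37.5 (cKO minus WT) rested on cKO replicate 2, without which it was -12.6, and without WT replicate 1 it was 14.8. The 5 that were tested are printed because they are the tRNA genes with enough reads. Capitals mark bases shared with a neighbouring gene, at which reads of neighbours on the same strand cannot be told apart. mt-Ti and mt-Tq share 3 bases on opposite strands, and the strand setting of the counter is not named. mt-Ti, mt-Tq and mt-Tm (isoleucine, glutamine and methionine tRNA) lie between mt-Nd1 and mt-Nd2, mt-Tw (tryptophan tRNA) follows mt-Nd2 and begins with its last 2 bases, and mt-Tp (proline tRNA) is the last gene of the annotation. mt-Tq and mt-Tp come from the light-strand promoter.
mt-Ti (MT:3706-3774, plus strand): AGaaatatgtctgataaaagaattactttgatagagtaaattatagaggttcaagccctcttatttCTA
mt-Tq (MT:3772-3842, minus strand): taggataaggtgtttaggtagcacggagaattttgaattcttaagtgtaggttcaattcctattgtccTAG
mt-Tm (MT:3845-3913, plus strand): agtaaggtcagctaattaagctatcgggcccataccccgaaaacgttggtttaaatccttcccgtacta
mt-Tw (MT:4950-5016, plus strand): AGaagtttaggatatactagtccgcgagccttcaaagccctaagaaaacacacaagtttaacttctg
mt-Tp (MT:15356-15422, minus strand): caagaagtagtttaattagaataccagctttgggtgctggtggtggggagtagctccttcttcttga

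mt-Tw (ENSMUSG00000064346) held 198, 307, 156 and 135 normalized counts in cKO replicates 1 to 4, against 116, 164, 151, 154 and 184 in WT replicates 1 to 5. The cKO female (replicate 2) was the highest library and the WT male (replicate 1) the lowest, and the groups overlapped. The means were 199 ± 76.9 in cKO and 154 ± 24.9 in WT (SD, n = 4 and 5). Fitted with sex, it had a log2 fold change of 0.70 ± 0.150 (SE, limma adjusted p = 0.0758), which missed the threshold. It was 0.92 ± 0.157 among females, with 1 cKO library, and 0.47 ± 0.227 among males, with 1 WT library (limma adjusted p = 0.0837 and 0.871, the lone library being assumed to vary like the rest). Robust limma gave an adjusted p of 0.0446, DESeq2 on the recovered reads 0.00224, edgeR 0.0534, and limma without cKO replicate 4 gave 0.0307. Without cKO replicate 2 the log2 fold change was 0.47 (limma adjusted p = 0.653). With no sex term in the fit it was 0.31 (limma adjusted p = 0.468). Over all alternatives mt-Tw had a log2 fold change of 0.31 to 0.92, with adjusted p values of 0.00224 to 0.871.

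mt-Tq (ENSMUSG00000064343) held 24.9, 37.2, 33.9 and 27.4 normalized counts in cKO libraries, against 17.0, 17.7, 17.6, 20.1 and 29.0 in WT libraries. Only WT replicate 5 reached the range of the cKO libraries. In the limma fit it differed by 0.77 ± 0.259 on the log2 scale (SE, adjusted p = 0.281), and it was above 0 among females (0.82) and among males (0.71). The counts behind it were small, 127 reads over the 4 cKO libraries and 99 over the 5 WT libraries.

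mt-Nd6 (ENSMUSG00000064368, MT:13552-14070) held 1097, 1637, 1641 and 1396 normalized counts in cKO libraries, against 1035, 1457, 1171, 1618 and 1688 in WT libraries. The groups overlapped, and its log2 fold change reached 0.27 ± 0.138 (SE, limma adjusted p = 0.478). As a ratio to the heavy-strand mRNAs, mt-Nd6 stood at 1.78 ± 0.277 per 1000 normalized counts in cKO and 1.65 ± 0.215 in WT. The 3 tested genes of the light-strand promoter, mt-Tq, mt-Nd6 and mt-Tp, had log2 fold changes of 0.27 to 0.77 with a median of 0.59, none of them passing. These values depend on the sex term. With no sex term in the fit they were 0.59 for mt-Tq, 0.056 for mt-Nd6 and -0.0040 for mt-Tp. The 11 of the heavy-strand promoter had a median of -0.0038, with 4 above and 7 below 0, and mt-Tw was the highest of them at 0.70. mt-Ti and mt-Tm, from the heavy-strand promoter, had log2 fold changes of -0.075 ± 0.234 and -0.12 ± 0.227 (limma adjusted p = 0.929 and 0.878).

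**Figure D4:**
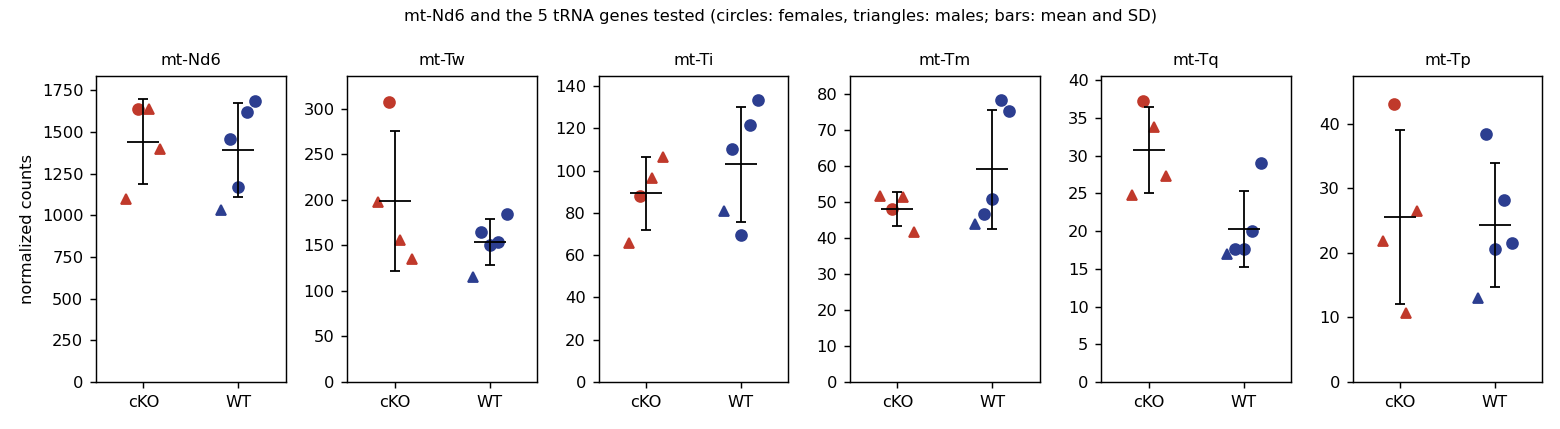
Points are normalized counts of mt-Nd6 and of the 5 tested tRNA genes in each library, cKO left of WT, circles for females and triangles for males, with bars for the mean and SD of each group (n = 4 and 5). The groups overlap in every plot, and the cKO female (replicate 2) is the highest library for mt-Tw at 307, mt-Tq at 37.2 and mt-Tp at 43.1 normalized counts.

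In the comparison of the sexes the members leaned to 1 side. In the same limma fit 9 of 17036 genes passed for sex (0.0528%), and 0 of the 14 members were among them. All 14 had a log2 fold change below 0 for males over females, with a median of -0.18, where 8490 of all 17036 genes lay below 0 and their median was 0.00028. These 14 values share the same libraries and so are not separate observations. Without WT replicate 1, the only WT male, 12 of the 14 lay below 0 and the median was -0.080. Without WT replicates 4 and 5, 13 lay below 0 and the median was -0.084. Without cKO replicate 2, the only cKO female, all 14 lay below 0 and the median was -0.21. Unadjusted p values were under 0.05 for 6 of the 14, all lower in males, against 6.73% of all genes and 3.19% in that direction. edgeR and robust limma called 0 members (0.0528% of all genes each). DESeq2 called 2 members, mt-Rnr2 and mt-Tw (DESeq2 adjusted p = 0.0111 and 0.0170), and 0.141% of all genes.

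mt-Rnr2 (ENSMUSG00000064339, MT:1094-2675) held 84063, 88569 and 85042 normalized counts in cKO males (replicates 1, 3 and 4) and 85207 in the WT male. It held 104608 in the cKO female and 92222, 92359, 104352 and 102483 in WT females. All 4 male libraries thus lay below all 5 female libraries, as they did in 1.73% of all genes tested (the sexes did not overlap in 3.11%, with males higher in 1.38%), and mt-Rnr2 was the only one of the 14 members whose sexes did not overlap. Its log2 fold change for males over females was -0.24 ± 0.0565 (SE, limma adjusted p = 0.384). For mt-Tw the log2 fold change was -0.70 ± 0.150 (limma adjusted p = 0.294), and the males and females overlapped.

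mt-Tp held 21.9, 10.6 and 26.4 normalized counts in cKO males and 13.0 in the WT male, against 43.1 in the cKO female and 38.4, 20.5, 28.1 and 21.5 in WT females. The sexes overlapped, with a log2 fold change of -1.07 ± 0.337 (SE, limma adjusted p = 0.684). mt-Nd6 had a log2 fold change of -0.39 ± 0.138, mt-Nd1 of -0.16 ± 0.0540 and mt-Rnr1 of -0.14 ± 0.0643 (limma adjusted p = 0.70, 0.685 and 0.740). Sex was unevenly split over the genotypes, with 1 female among cKO and 1 male among WT. Whether the genotype difference itself differed between the sexes was tested with an interaction term. It passed for 1 of 17036 genes (0.00587%), Sorcs2, a gene named here after its values were seen, and for 0 of the 14 members. An unadjusted p under 0.05 was reached by 1 of the 14, mt-Nd5 (0.33 ± 0.145, limma adjusted p = 0.614), against 7.9% of all genes.

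Nuclear genes that make, process and translate these RNAs were counted in the same fit. Passing genes were found in none of the 13 lists, which held 9 genes of mitochondrial transcription, 34 of RNA processing and modification, 4 of RNA decay, 14 of mitochondrial DNA replication and upkeep, 17 translation factors, 17 aminoacyl-tRNA synthetases, 8 regulators of biogenesis, 78 mitoribosomal proteins, and 37, 4, 9, 10 and 17 nuclear subunits of complexes I to V. At an unadjusted p under 0.05, reached by 11.3% of all genes tested, there were 2 genes in the transcription list, 2 in RNA processing, 3 among the mitoribosomal proteins, 2 in complex I, 1 each in decay, replication, translation factors, synthetases and biogenesis, and 0 in complexes II to V. The 8 biogenesis regulators all had a log2 fold change below 0, with a median of -0.052, and 8 of the 9 transcription genes lay above 0, with a median of 0.087.

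The member of smallest p in each list was looked at singly. Mterf1a, of the transcription termination family, held 80.5, 71.5, 61.0 and 72.6 normalized counts in cKO libraries, against 39.9, 51.9, 62.6, 61.3 and 59.1 in WT libraries (log2 fold change 0.54 ± 0.179, limma adjusted p = 0.278), and cKO replicate 3 lay inside the WT range. Lactb2, a mitochondrial ribonuclease, averaged 377 ± 28.4 in cKO and 482 ± 20.7 in WT (-0.32 ± 0.0786, limma adjusted p = 0.151). Mrpl36, of the large mitoribosomal subunit, averaged 428 ± 9.86 in cKO and 530 ± 36.5 in WT (-0.28 ± 0.0750, limma adjusted p = 0.168). In both, every cKO library lay below every WT library, as in 3.72% of all genes tested, but neither passed. Fars2, the mitochondrial phenylalanyl-tRNA synthetase, had 0.28 ± 0.0807 (limma adjusted p = 0.201).

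The remaining lists held smaller differences. Fastk, of a family acting on mitochondrial RNA, had a log2 fold change of 0.14, Rrm2b, a ribonucleotide reductase subunit, of -0.14, the elongation factor gene Gfm1 of -0.11, and Gabpb1, a subunit of nuclear respiratory factor 2, of -0.17 (limma adjusted p = 0.338, 0.428, 0.430 and 0.325). Among the respiratory subunits, Ndufb4 of complex I had 0.22, Sdha of complex II -0.047, Uqcrb of complex III -0.090, Cox5a of complex IV -0.059 and Atp5f1e of ATP synthase -0.11 (limma adjusted p of 0.377 to 0.682). In Gfm1, Gabpb1 and Uqcrb too, every cKO library lay below every WT library, as in 3.72% of all genes tested. The 77 nuclear subunits together summed to 265700 ± 10814 normalized counts in cKO and 271789 ± 6328 in WT, and the groups overlapped.

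Markers of other cells were counted beside the members. Gfap rose (0.29 ± 0.0553, limma adjusted p = 0.0420) and Aqp4 fell (-0.35 ± 0.0403, limma adjusted p = 0.00206) among the 5 astrocyte markers. Flt1 and Slco1c1 fell among the 5 endothelial markers (-0.34 and -0.27, limma adjusted p = 0.0417 and 0.00974), whose sum was 7177 to 7640 normalized counts in cKO libraries and 8414 to 9036 in WT libraries. No marker of neurons, meninges, choroid plexus, ependyma, blood, myelin or muscle passed. Snap25, a presynaptic protein of neurons and the neuronal marker of smallest p, averaged 32315 ± 937 normalized counts in cKO and 36255 ± 1243 in WT (-0.13 ± 0.0399, limma adjusted p = 0.256). Its cKO libraries all lay below its WT libraries, as in 3.72% of all genes tested. The markers of smallest p in the other lists were Col1a1 for meninges (0.52), Prlr for choroid plexus (0.20), Foxj1 for ependyma (0.13), Hbb-bs for blood (-0.32), Mag for myelin (0.28) and Tnnt2 for muscle (0.46), with limma adjusted p values of 0.129 to 0.803. Their part in the mitochondrial levels was not tested.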

How the data were processed

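Total RNA of hippocampus was made into directional libraries at one time, per the labels' protocols. The submitters' processing notes name FastQC 0.12.1, cutadapt 4.4, STAR 2.7.10b, DESeq2 1.41.8 and the GRCm39 build; the counter, its strand setting and its handling of reads with several matches are not named there. The deposited table gives a normalized signal per gene and library, gene counts divided by a size factor and rounded. Division by each library's step (0.943 to 1.08) returned whole reads, within 0.1 read, for 100.0% of values above 0. Normalized counts compare libraries; levels between genes were set per kilobase.

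limma-trend (limma 3.58.1 in R 4.3.3) was fitted with genotype and sex on log2(normalized count + 1) over 17036 genes (mean 10 or more), with Benjamini-Hochberg adjustment over all of them. Fold changes on this scale understate low genes. On recovered reads edgeR 4.0.16 and DESeq2 1.42.0, and other pseudocounts (0.5 and 5), filters, scalings and subsets were alternatives. Scripts were tested on simulated counts. Correlations used exact permutations (scipy 1.17.1). Windows of 50 and 100 bases were searched in 141767 GENCODE M21 transcripts of other genes with Python 3.11.15 and aligned with Biopython 1.88. That annotation is of an earlier build, and the 37 members have the same mitochondrial positions in both. Copies named here were found by that search; of them Gm10222 and those outside chromosome 1 were named after the data were seen.

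Replicate numbers are record order only. The chi-square per gene between libraries of a group was 3.62 to 12.9, so none was treated as a repeat. Litters are not labelled, and p-values reflect the spread among these samples alone. Members and lists were chosen with earlier results of these data known. Named were all mRNAs, rRNAs and tested tRNAs, and in each nuclear list the passing genes and the gene of smallest p.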

Additional observations from a re-analysis of the deposited data

Results flagged for a closer look

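In 48 groups of values (14 genes and 10 summed values or ratios, each in cKO and in WT), a library was marked where its gap to the nearest other library took an unusually large part of the group's range by Dixon's criterion. Chance marks about 1 in 20 groups, and 4 were marked. In cKO replicate 2, the only cKO female, the 22 tRNA genes summed to 564 normalized counts, against 353 to 374 in the other cKO libraries, and they made up 0.00176% of the reads, against 0.00110 to 0.00117%. The same library had an rRNA to mRNA ratio of 0.201, against 0.174 to 0.177 in the other cKO libraries. These 3 values come from 1 library and overlap in their reads. The astrocyte marker sum was 73551 normalized counts in that library and 64192 to 67953 in the other 8, and its part was not tested. In WT replicate 5, mt-Tq held 29.0 normalized counts, against 17.0 to 20.1 in the other WT libraries.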

How the results depend on the processing

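No paired analysis was possible because no label pairs animals of the groups and the numbers only follow record order. Against 59 passing genes for genotype, DESeq2 gave 200, no sex term 216, females alone 11, males alone 3, without WT replicates 2 and 5 15, and without WT replicates 4 and 5 32. Leaving out each library gave 10 to 65 (without cKO replicate 1 28, cKO replicate 2 10, WT replicate 1 21, WT replicate 2 29, WT replicate 5 30). Members passing were 1 with robust limma, 1 with DESeq2 and 0 to 1 with a library left out. In DESeq2, mt-Tq, mt-Tm and mt-Tp had no adjusted p. For sex, against 9 genes, DESeq2 gave 24 (2 of them members), without WT replicates 4 and 5 14, and leaving out each library 9 to 16. cKO minus WT was 52034 for summed mRNA in males alone against -32184 in all, 3339 for rRNA in females alone against -9975, 165 for tRNA in females alone against 37.5, and 0.210 percentage points for the share of reads in males alone against -0.068. With a library left out these differences ranged from -53789 to -10805 for mRNA, from -15728 to -6221 for rRNA (-599 without WT replicates 4 and 5), from -12.6 to 58.8 for tRNA and from -0.144 to 0.0061 percentage points for the share of reads. The correlation of mt-Co1 with mt-Rnr2 was 0.426 without WT replicates 4 and 5 and 0.649 to 0.903 with a library left out, and that with mt-Cytb 0.839 without WT replicates 4 and 5.

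No log2 fold change that changed sign had passed under any alternative run. Without a sex term they were -0.075 for mt-Rnr2, -0.037 for mt-Nd1, -0.041 for mt-Cytb and -0.0040 for mt-Tp. In females alone mt-Cytb had -0.096, and in males alone mt-Ti had 0.12, mt-Tm 0.12, mt-Nd2 0.082, mt-Co1 0.081, mt-Nd4 0.096 and mt-Nd5 0.15. With TMM scaling mt-Nd2 had 0.0042 and mt-Nd4 0.0012, and with edgeR mt-Nd2 had 0.0030. Scaled to reads outside the mitochondrial genome, mt-Nd2 had 0.028, mt-Co1 0.023, mt-Nd4 0.025 and mt-Nd5 0.010, and scaled to total reads 0.027, 0.022, 0.024 and 0.0095. Without WT replicates 2 and 5, mt-Ti had 0.035, mt-Nd2 0.0081, mt-Co1 0.0049 and mt-Nd4 0.0081. Without WT replicates 4 and 5, a setting added after the data were seen, mt-Rnr1 had 0.0039, mt-Ti 0.068, mt-Tm 0.055, mt-Nd2 0.051, mt-Co1 0.057, mt-Nd4 0.066 and mt-Nd5 0.055. With a library left out, mt-Rnr1 ranged from -0.076 to -0.018, mt-Ti ranged from -0.26 to 0.12, mt-Tm from -0.34 to 0.12, mt-Nd2 from -0.078 to 0.082, mt-Co1 from -0.087 to 0.081, mt-Nd4 from -0.097 to 0.096, mt-Nd5 from -0.18 to 0.15 and mt-Cytb from -0.096 to 0.12. The causes were not tested. Depth limits the tRNAs, of which mt-Tw, the deepest, had 1569 reads over the 9 libraries.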

Other observations

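Of the 3 copies of mitochondrial sequence found on chromosome 2, Gm13340 and Gm13341 had more reads than any copy on chromosome 1 (means of 19.8 and 16.6 normalized counts over the 9 libraries, against 0.654 to 4.34), while Gm13339 had a mean of 0.326. Gm13340, 97.6% identical to mt-Co1, held 19.9, 29.4, 25.2 and 13.2 normalized counts in cKO replicates 1 to 4, against 12.0, 13.5, 9.78, 20.1 and 35.5 in WT replicates 1 to 5. Gm13341 held 13.9, 15.7, 19.4 and 15.1 in cKO libraries, against 8.98, 18.7, 22.5, 13.1 and 22.6 in WT libraries. The groups overlapped for both. Among tRNA genes below the level required for testing, mt-Tt (threonine) held 9.94, 23.5, 12.6 and 3.77 normalized counts in cKO libraries, against 3.99, 4.15, 4.89, 6.02 and 9.68 in WT libraries, with the highest value in cKO replicate 2. mt-Ta (alanine) spanned 0 to 7.83 in cKO libraries and 1.99 to 13.1 in WT libraries.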
